A study of Mus musculus with 8 samples.

Results

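The genes described here are 44 interferon response and antigen processing genes, from the transcription factors that carry the interferon signal to the antiviral effectors and the machinery that loads peptides onto MHC class I. A gene was measured where a transcript cluster of the array (a group of probes read as 1 transcript unit) had that gene as its only symbol, and several such clusters of a gene were averaged. By this rule 40 of the 44 were measured, in 41 of 24169 clusters, among 17501 genes in all. Isg15 and Gbp2 lay in clusters shared with another symbol and were left out, and Mx1 and Ifi44 were not analysed here.

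The RNA came from mouse embryonic fibroblasts (MEFs), primary connective tissue cells grown from dissociated embryos, and was hybridised to 8 Affymetrix arrays. The mixed BL background joins 129SVJ with NIH Black Swiss mice, and the other background is C57B6. The 8 arrays were late Smurf2-/- and wild-type mixed BL cells (passage 33), early Smurf2-/- and wild-type mixed BL cells (passage 6), late Smurf2-/- and wild-type C57B6 cells (passage 28), and early Smurf2-/- and wild-type C57B6 cells (passage 7). Smurf2 encodes a ubiquitin ligase, and no treatment is named in the labels. By the labels, each C57B6 culture was made from 1 embryo, while mixed BL cultures pooled 3 Smurf2-/- or 2 wild-type embryos. The labels disagree on the embryonic day, give no sex, and do not say whether early and late cells were passages of 1 culture. There was 1 array per combination and no technical repeat. A p-value from a fit therefore measures the spread of the 8 arrays around the fitted terms, not the spread between repeats of a condition. That spread also holds any interaction left out of the fit, and the number of arrays limits the precision. A pattern that needs genotype, background and passage at once has no test.

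Interferons bind receptors at the cell surface whose Jak kinases phosphorylate Stat proteins. Stat2 and Irf9 then act in the complex ISGF3, which binds the interferon-stimulated response element (ISRE) in promoters of antiviral genes, and the GAS element is a further promoter motif of the interferon response. Many induced genes also act in the pathway, as sensors of viral RNA or as brakes on the receptor, and fibroblasts can hold a low tonic level of the set without infection. Induced proteasome subunits, the Tap transporter and B2m take part in cutting peptides, transporting them and presenting them on MHC class I, respectively.

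Promoter windows, 250 bases before to 50 after a transcription start (RefSeq, GRCm38.p6), were at hand for 31 of the 40 measured genes. The ISRE core was searched as GAAA, any 2 bases, GAAA, and the GAS element as TTC, any 3 bases, GAA, on both strands. At least 1 ISRE core lay in the windows of 13 of these 31 genes (41.9%), against 3.99% of all 27025 genes with a window. The GAS letters lay in the windows of 8 of the 31 (25.8%), against 9.55% of all genes. The 13 genes with an ISRE core were Stat2, Ddx58, Ifih1, Ifit1, Ifit3, Oas3, Gbp3, Eif2ak2, Bst2, Ifitm3, Rsad2, Cxcl10 and B2m. The windows of 5 genes follow, 5′ to 3′ along the gene's strand, with the ISRE core letters in capitals. They belong to a subunit of ISGF3 itself, to 3 effectors with large differences between arrays, and to the class I light chain. TTTC, any 2 bases, TTTC is the same core read on the other strand, and the 2 cores of Bst2 overlap. A match describes the letters and was not tied to binding.
Stat2 (chr10:128270248-128270547, plus strand): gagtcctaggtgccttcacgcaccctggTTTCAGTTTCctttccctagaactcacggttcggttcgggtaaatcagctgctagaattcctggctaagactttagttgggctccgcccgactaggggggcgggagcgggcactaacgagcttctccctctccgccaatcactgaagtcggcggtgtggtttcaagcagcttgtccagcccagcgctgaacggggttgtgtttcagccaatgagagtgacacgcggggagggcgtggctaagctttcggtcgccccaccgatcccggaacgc
Ifit1 (chr19:34640639-34640938, plus strand): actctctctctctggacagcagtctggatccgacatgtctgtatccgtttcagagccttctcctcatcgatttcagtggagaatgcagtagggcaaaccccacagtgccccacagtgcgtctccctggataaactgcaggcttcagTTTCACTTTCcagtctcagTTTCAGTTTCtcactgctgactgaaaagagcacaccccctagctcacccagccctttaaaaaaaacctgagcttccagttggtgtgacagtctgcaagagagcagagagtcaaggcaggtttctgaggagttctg
Ifit3 (chr19:34583279-34583578, plus strand): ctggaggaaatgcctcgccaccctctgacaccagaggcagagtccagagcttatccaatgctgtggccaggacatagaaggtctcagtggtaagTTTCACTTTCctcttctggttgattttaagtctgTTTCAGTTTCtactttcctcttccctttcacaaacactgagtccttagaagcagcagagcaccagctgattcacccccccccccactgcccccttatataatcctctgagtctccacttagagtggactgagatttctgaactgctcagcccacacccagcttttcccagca
Bst2 (chr8:71537423-71537722, minus strand): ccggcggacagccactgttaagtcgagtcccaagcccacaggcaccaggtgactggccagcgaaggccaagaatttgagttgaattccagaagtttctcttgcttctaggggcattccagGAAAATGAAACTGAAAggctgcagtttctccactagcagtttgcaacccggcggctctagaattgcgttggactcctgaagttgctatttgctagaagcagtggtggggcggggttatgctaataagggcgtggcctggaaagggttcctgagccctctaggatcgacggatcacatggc
B2m (chr2:122147437-122147736, plus strand): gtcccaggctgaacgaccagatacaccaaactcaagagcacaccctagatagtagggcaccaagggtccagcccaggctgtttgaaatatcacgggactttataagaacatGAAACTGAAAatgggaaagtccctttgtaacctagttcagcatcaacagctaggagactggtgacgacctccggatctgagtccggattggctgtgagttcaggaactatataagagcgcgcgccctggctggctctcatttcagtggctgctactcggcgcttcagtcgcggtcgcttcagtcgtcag

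Every value below is log2, relative to the median of that gene over the 8 arrays, because the deposited values were centred in this way. Levels of different genes therefore cannot be compared, and a value of 1 on an array is a doubling over the gene's own median. No filter on low values was applied. The step of the deposited numbers placed 6 of the 41 clusters (14.6%) at a log2 level of 8 or more on every array, against 22.5% of all clusters, namely those of Eif2ak2, Ifitm3, Ly6e, Lgals3bp, Tapbp and B2m.

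Smurf2 averaged 1.57 lower on the Smurf2-/- arrays than on the wild-type arrays on the log2 scale, with no overlap of the 4 and 4 arrays (log2 difference -1.57 ± 0.12 SE; exact permutation p = 0.0286, the smallest that 4 against 4 arrays allow). Xist differed by -4.36 log2 (Smurf2-/- minus wild-type) and Y-linked Uty, Kdm5d and Eif2s3y were higher, so the sex of the embryos and the genotype cannot be told apart. In the additive fit 0.0286% of all genes passed for genotype, and these 5 genes were Smurf2, Xist, Uty, Kdm5d and Eif2s3y. The medians of the 10 fibroblast markers lay between -0.64 (late Smurf2-/- C57B6) and 0.17 (early wild-type C57B6), and those of the 17 macrophage and leukocyte markers between -0.04 and 0.21. The fibroblast markers Thy1, Dcn and Lum had far wider ranges than these medians, 4.98, 4.92 and 4.40. On the late Smurf2-/- mixed BL array the fibroblast markers had a median of -0.08 but ran up to 3.89 for Lum, with 2.44 for Dcn and 1.47 for Pdgfra. In bulk RNA, fewer cells of a type and less RNA per cell cannot be told apart.

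The genes stood highest on 3 arrays: both early C57B6 arrays and the late Smurf2-/- mixed BL array. The median over the 40 genes was 0.35 in late Smurf2-/-, -0.01 in late wild-type, -0.08 in early Smurf2-/- and -0.09 in early wild-type mixed BL cells. Among C57B6 arrays the medians were -0.05 in late Smurf2-/-, -0.14 in late wild-type, 0.33 in early Smurf2-/- and 0.61 in early wild-type cells. The medians of all 17501 genes stayed between -0.01 and 0.05. Early wild-type C57B6 cells held the highest value of 27 of the 40 genes, where they held that of 10.8% of all genes. Late Smurf2-/- mixed BL cells held the highest value of 9, against 11.4% of all genes. The 3 high arrays together stood above the other 5 for 18 of the 40 genes, against 0.863% of all genes, a grouping chosen after the values were seen.

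**Figure D1:**
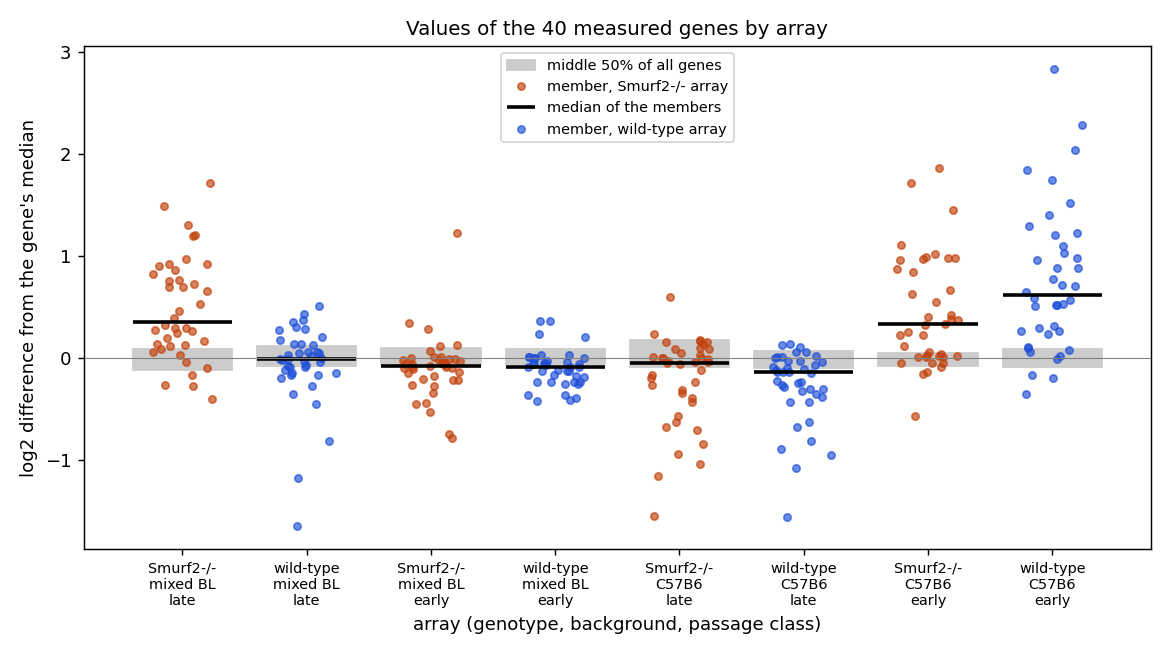
Each point is 1 of the 40 measured genes, with its log2 difference from the gene's own median on the vertical axis and the 8 arrays on the horizontal axis; black lines are medians of the 40 and grey boxes span the middle 50% of all genes. The medians of 0.35, 0.33 and 0.61 on late Smurf2-/- mixed BL, early Smurf2-/- C57B6 and early wild-type C57B6 arrays lie above the grey boxes, and the other 5 medians lie between -0.14 and -0.01.

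Of the 4 transcription factors, Stat2, Irf9 and Irf7 were high on these arrays and Irf1 was not. Stat2 is the subunit of ISGF3 that activates transcription. Stat2 in mixed BL cells had 0.70 in late Smurf2-/-, 0.14 in late wild-type, -0.14 in early Smurf2-/- and -0.17 in early wild-type. Stat2 in C57B6 cells had -0.94 in late Smurf2-/-, -0.14 in late wild-type, 0.97 in early Smurf2-/- and 1.51 in early wild-type. Both early C57B6 values exceeded every other value, late Smurf2-/- mixed BL came next, and late Smurf2-/- C57B6 was lowest. Irf9 gives ISGF3 its DNA binding. Irf9 in mixed BL cells had 0.69 in late Smurf2-/-, -0.14 in late wild-type, -0.056 in early Smurf2-/- and -0.36 in early wild-type. Irf9 in C57B6 cells had -0.44 in late Smurf2-/-, 0.056 in late wild-type, 0.96 in early Smurf2-/- and 1.09 in early wild-type. The same 3 arrays were high and the other 5 were all at or below 0.06. Irf7, which drives the genes of type I interferon, had 1.20 in late Smurf2-/- mixed BL, 1.02 in early Smurf2-/- C57B6 and 0.98 in early wild-type C57B6 cells, and between -0.23 and 0.01 on the other 5 arrays. Irf1, an early target of interferon gamma, spanned 0.53 over the arrays, near the middle of all genes. Its 2 clusters differed in early wild-type C57B6 cells, at 0.58 and -0.0012.

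Of the cytosolic RNA sensors, Ddx58 was high on all 3 of these arrays, and Ifih1 and Dhx58 on 2 of them. Ddx58 (RIG-I) detects short viral double-stranded RNA. Ddx58 in mixed BL cells had 0.92 in late Smurf2-/-, -0.031 in late wild-type, -0.055 in early Smurf2-/- and 0.031 in early wild-type. Ddx58 in C57B6 cells had -0.67 in late Smurf2-/-, -0.29 in late wild-type, 0.87 in early Smurf2-/- and 1.22 in early wild-type. The 3 high arrays stood at 0.87 or more and the other 5 at or below 0.03. Ifih1 (MDA5) detects long double-stranded RNA. Ifih1 in mixed BL cells had -0.10 in late Smurf2-/-, -0.81 in late wild-type, -0.34 in early Smurf2-/- and -0.26 in early wild-type. Ifih1 in C57B6 cells had 0.10 in late Smurf2-/-, 0.10 in late wild-type, 0.62 in early Smurf2-/- and 0.96 in early wild-type. Both early C57B6 arrays were highest, but late Smurf2-/- mixed BL was close to the gene's median and late wild-type mixed BL was lowest. Dhx58 (LGP2), which modulates both sensors, had 0.90 in late Smurf2-/- mixed BL and 0.89 in early wild-type C57B6 cells and lay between -0.28 and 0.13 elsewhere, early Smurf2-/- C57B6 included.

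Ifit proteins bind viral RNA and block its translation. Ifit1 recognises RNA without cap methylation. Ifit1 in mixed BL cells had 1.49 in late Smurf2-/-, -0.36 in late wild-type, -0.45 in early Smurf2-/- and -0.24 in early wild-type. Ifit1 in C57B6 cells had 0.24 in late Smurf2-/-, -0.63 in late wild-type, 1.10 in early Smurf2-/- and 2.03 in early wild-type. Its range of 2.66 was bounded by late and early wild-type C57B6 cells. Ifit3 is a relative with the same tetratricopeptide repeats. Ifit3 in mixed BL cells had 0.76 in late Smurf2-/-, 0.43 in late wild-type, -0.78 in early Smurf2-/- and -0.37 in early wild-type. Ifit3 in C57B6 cells had -1.04 in late Smurf2-/-, -1.08 in late wild-type, 0.37 in early Smurf2-/- and 0.88 in early wild-type. For Ifit3 both late mixed BL arrays stood above both early ones, and both late C57B6 arrays more than 1 log2 unit below the median. Ifit2 went another way: its highest values were 0.35 in late wild-type and 0.27 in late Smurf2-/- mixed BL cells, and its lowest was -0.81 in late wild-type C57B6 cells.

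The oligoadenylate synthetases make the messenger that activates RNase L, and most of them hardly varied. Oasl2 varied most. Oasl2 in mixed BL cells had 0.92 in late Smurf2-/-, -0.20 in late wild-type, -0.091 in early Smurf2-/- and -0.39 in early wild-type. Oasl2 in C57B6 cells had 0.091 in late Smurf2-/-, -0.39 in late wild-type, 0.55 in early Smurf2-/- and 0.32 in early wild-type. Late Smurf2-/- mixed BL and both early C57B6 arrays were again the highest 3. Oasl1 lacks synthetase activity and in mouse cells restrains the translation of Irf7. Oasl1 in mixed BL cells had 0.26 in late Smurf2-/-, 0.053 in late wild-type, -0.10 in early Smurf2-/- and -0.12 in early wild-type. Oasl1 in C57B6 cells had 0.16 in late Smurf2-/-, 0.14 in late wild-type, -0.053 in early Smurf2-/- and -0.17 in early wild-type. It alone of the 40 genes lay higher on both late than on both early C57B6 arrays. Oas3 had the narrowest range of the set. Oas3 in mixed BL cells had 0.029 in late Smurf2-/-, 0.032 in late wild-type, -0.080 in early Smurf2-/- and -0.0039 in early wild-type. Oas3 in C57B6 cells had -0.029 in late Smurf2-/-, 0.0039 in late wild-type, -0.14 in early Smurf2-/- and 0.081 in early wild-type. Its range of 0.22 exceeded that of 13.9% of all genes, and the ranges of Oas2 (0.25) and Rsad2 (0.22) exceeded those of 17.8% and 14.1%.

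Isg15 is a ubiquitin-like protein, and both of its measured partners varied widely. Usp18 removes Isg15 from proteins and damps receptor signalling. Usp18 in mixed BL cells had 1.20 in late Smurf2-/-, -0.074 in late wild-type, 0.0046 in early Smurf2-/- and -0.0046 in early wild-type. Usp18 in C57B6 cells had -0.35 in late Smurf2-/-, -0.27 in late wild-type, 0.99 in early Smurf2-/- and 1.29 in early wild-type. The 3 high arrays stood near or above 1 and the other 5 close to or below the median. Trim25 is a ubiquitin and Isg15 ligase that in human cells activates RIG-I. Trim25 in mixed BL cells had 1.30 in late Smurf2-/-, -1.17 in late wild-type, 1.22 in early Smurf2-/- and 0.36 in early wild-type. Trim25 in C57B6 cells had -1.55 in late Smurf2-/-, -1.56 in late wild-type, 0.67 in early Smurf2-/- and -0.36 in early wild-type. Trim25 differed from the rest in being high in both Smurf2-/- mixed BL arrays and early Smurf2-/- C57B6 cells, and low in both late C57B6 arrays and late wild-type mixed BL cells.

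Of the interferon-induced GTPases, Gbp3 is a guanylate-binding protein that acts on intracellular pathogens. Gbp3 in mixed BL cells had 0.96 in late Smurf2-/-, 0.21 in late wild-type, -0.21 in early Smurf2-/- and -0.24 in early wild-type. Gbp3 in C57B6 cells had -0.31 in late Smurf2-/-, -0.32 in late wild-type, 0.98 in early Smurf2-/- and 1.75 in early wild-type. Early wild-type C57B6 was highest, the other 2 of the 3 high arrays were close to 1, and the remaining values stayed at or below 0.21. Mx2 is a dynamin-like antiviral GTPase. Mx2 in mixed BL cells had 0.82 in late Smurf2-/-, -0.043 in late wild-type, -0.026 in early Smurf2-/- and -0.036 in early wild-type. Mx2 in C57B6 cells had 0.026 in late Smurf2-/-, -0.026 in late wild-type, 0.26 in early Smurf2-/- and 0.26 in early wild-type. Late Smurf2-/- mixed BL stood apart, both early C57B6 arrays had the same 0.26 and the other 5 lay close to the median.

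Enzymes that act on double-stranded RNA varied less. Eif2ak2 (PKR) is the kinase that stops translation when it binds such RNA. Eif2ak2 in mixed BL cells had 0.20 in late Smurf2-/-, 0.049 in late wild-type, -0.18 in early Smurf2-/- and -0.049 in early wild-type. Eif2ak2 in C57B6 cells had -0.71 in late Smurf2-/-, -0.086 in late wild-type, 0.23 in early Smurf2-/- and 0.53 in early wild-type. Its lowest value, in late Smurf2-/- C57B6 cells, lay farther from the median than its highest. Adar converts adenosine to inosine in double-stranded RNA. Adar in mixed BL cells had 0.24 in late Smurf2-/-, -0.17 in late wild-type, -0.093 in early Smurf2-/- and -0.093 in early wild-type. Adar in C57B6 cells had -0.0011 in late Smurf2-/-, 0.0011 in late wild-type, 0.38 in early Smurf2-/- and 0.57 in early wild-type. The same 3 arrays were highest, within a range of 0.74.

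Among the restriction factors of cell membranes, Bst2 (tetherin) holds budding virions at the surface. Bst2 in mixed BL cells had 0.75 in late Smurf2-/-, 0.043 in late wild-type, -0.27 in early Smurf2-/- and -0.26 in early wild-type. Bst2 in C57B6 cells had -0.043 in late Smurf2-/-, -0.24 in late wild-type, 1.86 in early Smurf2-/- and 2.29 in early wild-type. The early C57B6 arrays were more than 1 log2 unit above every other array. Ly6e is a lipid-anchored surface protein that restricts coronavirus entry. Ly6e in mixed BL cells had 0.46 in late Smurf2-/-, -1.65 in late wild-type, -0.016 in early Smurf2-/- and -0.41 in early wild-type. Ly6e in C57B6 cells had 0.60 in late Smurf2-/-, -0.066 in late wild-type, 0.020 in early Smurf2-/- and 0.016 in early wild-type. Its pattern was its own, set by a low value in late wild-type mixed BL cells. Ifitm3, which blocks fusion of viral and cell membranes, had its highest values at 0.73 in late Smurf2-/- mixed BL and 0.64 in early wild-type C57B6 cells. Rsad2 (viperin), which makes a nucleotide that ends viral RNA chains, stayed between -0.06 and 0.16.

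Parp9, Parp14 and Dtx3l are induced proteins of ADP-ribosylation and ubiquitination. Parp14 is an ADP-ribosyltransferase. Parp14 in mixed BL cells had 0.53 in late Smurf2-/-, 0.37 in late wild-type, -0.28 in early Smurf2-/- and -0.18 in early wild-type. Parp14 in C57B6 cells had -0.12 in late Smurf2-/-, -0.36 in late wild-type, 0.12 in early Smurf2-/- and 1.21 in early wild-type. Early wild-type C57B6 was far above the rest and both late mixed BL arrays followed. Dtx3l is the ubiquitin ligase partner of Parp9. Dtx3l in mixed BL cells had 0.11 in late Smurf2-/-, 0.27 in late wild-type, -0.056 in early Smurf2-/- and -0.13 in early wild-type. Dtx3l in C57B6 cells had -0.19 in late Smurf2-/-, -0.68 in late wild-type, 0.056 in early Smurf2-/- and 0.52 in early wild-type. The highest and the lowest array were both wild-type C57B6, early and late. Parp9 ran from -0.43 in late wild-type C57B6 to 0.71 in early wild-type C57B6 cells.

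Among the remaining effectors, Rtp4 and Lgals3bp had the widest ranges of the 40 genes. Rtp4 is an induced chaperone of membrane receptors. Rtp4 in mixed BL cells had 1.72 in late Smurf2-/-, -0.090 in late wild-type, -0.74 in early Smurf2-/- and -0.057 in early wild-type. Rtp4 in C57B6 cells had -0.054 in late Smurf2-/-, 0.054 in late wild-type, 1.71 in early Smurf2-/- and 2.83 in early wild-type. Its range of 3.58 exceeded that of 99.4% of all genes, and the 3 high arrays stood at 1.71 or more. Lgals3bp is a secreted glycoprotein that binds galectins. Lgals3bp in mixed BL cells had -0.28 in late Smurf2-/-, -0.45 in late wild-type, 0.28 in early Smurf2-/- and 0.36 in early wild-type. Lgals3bp in C57B6 cells had -1.16 in late Smurf2-/-, -0.90 in late wild-type, 1.44 in early Smurf2-/- and 1.84 in early wild-type. Early C57B6 was highest and late C57B6 lowest, and unlike most of the set its late mixed BL values lay below its early ones. Xaf1, an antagonist of an apoptosis inhibitor, followed Rtp4 with 0.86, 0.98 and 1.40 on the late Smurf2-/- mixed BL, early Smurf2-/- C57B6 and early wild-type C57B6 arrays. Ifi35 spanned 0.96 and Samd9l, which restricts poxviruses, spanned 1.56 with its 2 highest values in early C57B6 cells. Cxcl10 is the chemokine that draws activated T cells. Cxcl10 in mixed BL cells had 0.66 in late Smurf2-/-, -0.0063 in late wild-type, -0.11 in early Smurf2-/- and -0.085 in early wild-type. Cxcl10 in C57B6 cells had 0.088 in late Smurf2-/-, -0.10 in late wild-type, 0.0063 in early Smurf2-/- and 0.23 in early wild-type. It stood apart on the late Smurf2-/- mixed BL array and differed little among the others.

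**Figure D2:**
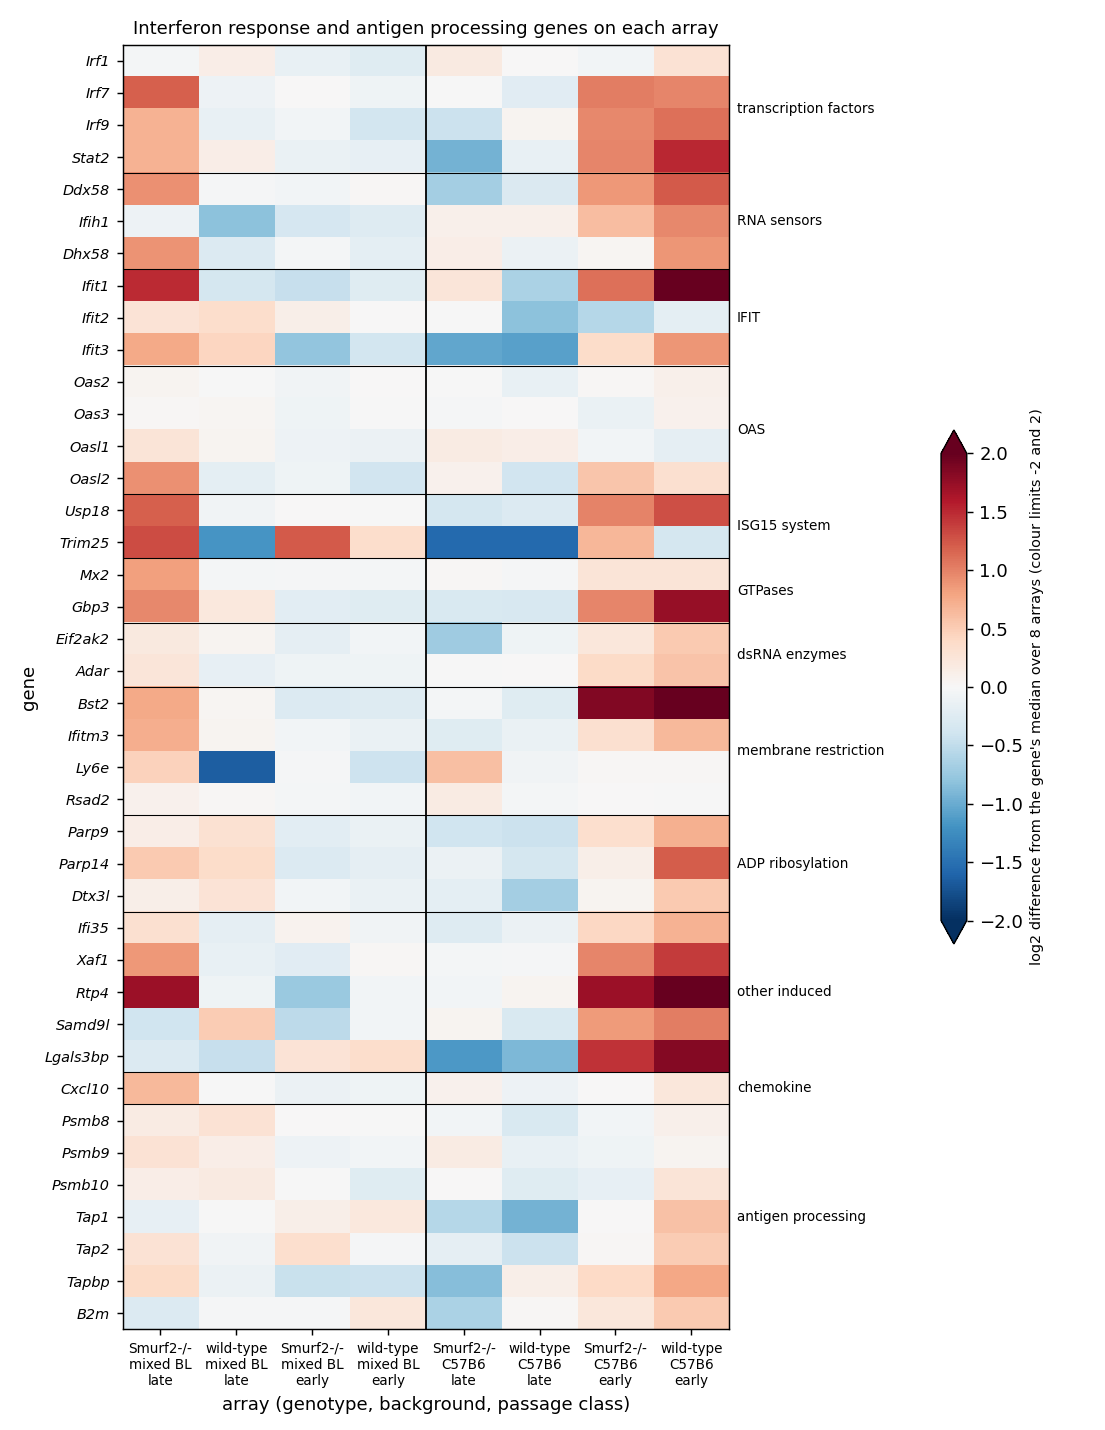
Rows are the 40 measured genes grouped by role, columns are the 8 arrays, and colour gives the log2 difference from the gene's median (red above, blue below, limits -2 and 2). Red columns at late Smurf2-/- mixed BL and at both early C57B6 arrays run through most groups, with Oas2, Oas3, Rsad2 and the Psmb genes nearly white and Trim25, Ly6e and Ifit2 on courses of their own.

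The 7 antigen processing genes varied less. Their median was 0.16 on the late Smurf2-/- mixed BL array and 0.51 on the early wild-type C57B6 array, and between -0.24 and 0.01 on the others. Tapbp (tapasin) bridges the peptide transporter and class I. Tapbp in mixed BL cells had 0.39 in late Smurf2-/-, -0.12 in late wild-type, -0.44 in early Smurf2-/- and -0.43 in early wild-type. Tapbp in C57B6 cells had -0.85 in late Smurf2-/-, 0.12 in late wild-type, 0.40 in early Smurf2-/- and 0.77 in early wild-type. Both early C57B6 arrays and late Smurf2-/- mixed BL were its highest 3. Tap1 is a subunit of that transporter. Tap1 in mixed BL cells had -0.17 in late Smurf2-/-, -0.011 in late wild-type, 0.12 in early Smurf2-/- and 0.20 in early wild-type. Tap1 in C57B6 cells had -0.57 in late Smurf2-/-, -0.95 in late wild-type, 0.011 in early Smurf2-/- and 0.59 in early wild-type. Both late C57B6 arrays were low, with late wild-type the lowest, and both late mixed BL arrays lay below the early ones. Tap2, the other subunit, ran from -0.43 in late wild-type C57B6 to 0.51 in early wild-type C57B6 cells. B2m, the light chain of class I, ran from -0.63 in late Smurf2-/- C57B6 to 0.52 in early wild-type C57B6 cells.

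Psmb8, Psmb9 and Psmb10 replace the constitutive catalytic subunits Psmb5, Psmb6 and Psmb7 when the immunoproteasome forms. The 3 inducible subunits had ranges of 0.59, 0.44 and 0.51. On the early wild-type C57B6 array the inducible subunits stood at 0.10 for Psmb8, 0.06 for Psmb9 and 0.26 for Psmb10. Their constitutive counterparts had their lowest values on the same array, at -0.685 for Psmb5, -0.23 for Psmb6 and -0.49 for Psmb7. The 2 kinds of subunit thus lay on opposite sides of their medians on that array. The early Smurf2-/- C57B6 array did not share this, since every subunit of both kinds lay below its median there. Its values were -0.05 for Psmb8, -0.09 for Psmb9, -0.16 for Psmb10, -0.26 for Psmb5, -0.06 for Psmb6 and -0.23 for Psmb7. On the late wild-type C57B6 array every subunit of both kinds also lay below its median. For late minus early passage in mixed BL less that in C57B6, Psmb8 differed by 0.43 ± 0.17 and Psmb5 by -0.70 ± 0.23 (log2 ± SE), neither past the threshold (limma adjusted p 0.571 and 0.461).

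**Figure D3:**
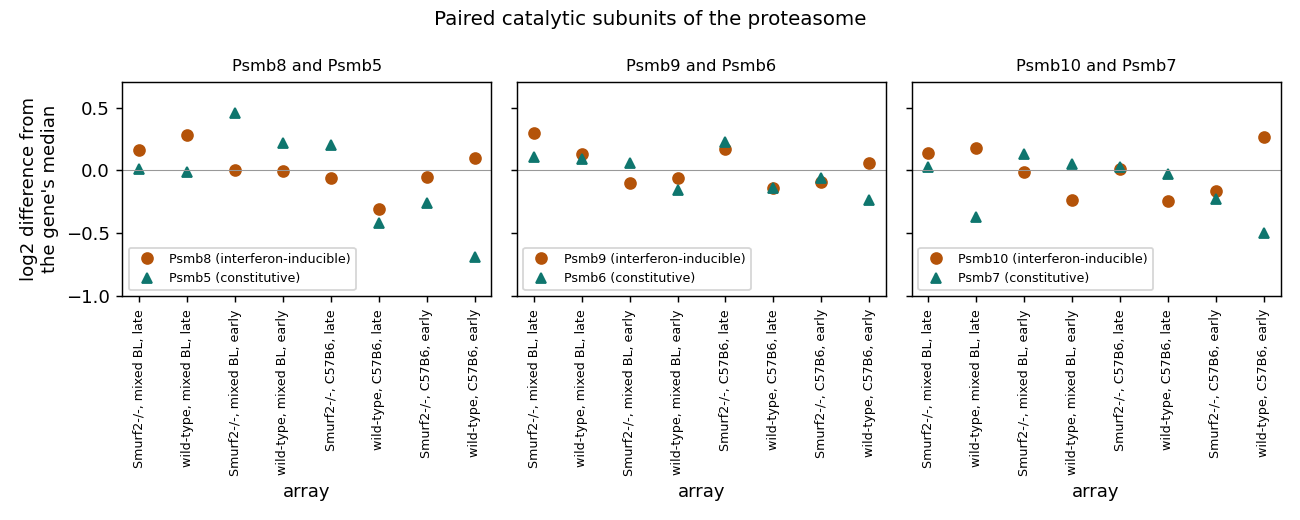
Each panel plots an interferon-inducible catalytic subunit (circles) and its constitutive counterpart (triangles) over the 8 arrays, as log2 differences from each gene's own median. On the early wild-type C57B6 array every circle lies above 0 and every triangle below, at -0.685 for Psmb5, -0.23 for Psmb6 and -0.49 for Psmb7. On the early Smurf2-/- and late wild-type C57B6 arrays every circle and every triangle lies below 0.

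Late passage was set against early passage within each background, and the 2 differences against each other, by limma across all 17501 genes. The contrast of the 2 differences was chosen because they had differed in sign for this set in earlier results of these data. In C57B6 the set lay lower late than early, with Lgals3bp at -2.67 ± 0.15, Bst2 at -2.21 ± 0.27, Stat2 at -1.78 ± 0.34, Ifit3 at -1.69 ± 0.23 and Parp9 at -0.94 ± 0.12 (log2 ± SE). The difference was below 0 for 35 of the 40 genes, with a median of -0.74, against a median of 0.04 over all genes. By limma with Benjamini-Hochberg adjustment 0 of the 40 passed 0.05, as did 0% of all genes, and the smallest adjusted p was 0.223. At an unadjusted p under 0.05 there were 26 of the 40, against 10.8% of all genes. Both late arrays stood below both early ones for 30 of the 40, against 16.6% of all genes, and above them for Oasl1 alone (25.3% of all genes). Late minus early had a median of -0.57 in Smurf2-/- and -0.90 in wild-type C57B6 cells. It was under -0.5 for 22 genes in Smurf2-/- (10.3% of all genes) and for 29 in wild-type cells (5.81% of all genes). Without the early wild-type C57B6 array the fitted median was -0.48. Averaged over genotype, all 10 fibroblast markers also lay lower in late C57B6 cells (median -0.47, 0 called by limma, 0 at an unadjusted p under 0.05). By genotype, 10 of the 10 markers lay lower late in Smurf2-/- cells (median -0.81) and 5 of the 10 in wild-type cells (median -0.0047). In wild-type cells they ran from -2.43 for Dcn, -2.25 for Lum and -1.25 for Pdgfra up to 0.34 for Col1a2. The part of the fibroblast markers in the result was not tested.

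In mixed BL the set lay slightly higher late than early, with Ifit3 at 1.17 ± 0.23 and Parp9 at 0.39 ± 0.12, but Lgals3bp at -0.69 ± 0.15. The difference was above 0 for 33 of the 40 with a median of 0.32. None of the 40 was called by limma (smallest adjusted p 0.107), against 0.486% of all genes, and 4 had an unadjusted p under 0.05 (16.4% of all genes). Both late arrays stood above both early ones for 19 of the 40 (25.4% of all genes) and below them for Lgals3bp and Tap1 (25.5% of all genes). The median difference was 0.38 in Smurf2-/- cells and 0.08 in wild-type cells, and without the late Smurf2-/- array the fitted median was 0.02 instead of 0.32. Differences above 0.5 were held by 18 genes in Smurf2-/- cells (6.69% of all genes) and by 3 in wild-type cells (6.23% of all genes). The late Smurf2-/- array stood above the other 3 mixed BL arrays for 28 of the 40, against 24.9% of all genes. Lyz2, a macrophage marker, fell by 2.91 ± 0.29 in late against early mixed BL cells (limma adjusted p = 0.0441), and 13 of the 17 macrophage and leukocyte markers lay lower late, a part in the result that was not tested. For the fibroblast markers of widest range, late minus early in Smurf2-/- mixed BL cells was -1.86 for Thy1, 0.77 for Dcn and 3.44 for Lum. In wild-type mixed BL cells it was -4.11 for Thy1, -3.83 for Dcn and -1.22 for Lum, and their part was not tested either.

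**Figure D4:**
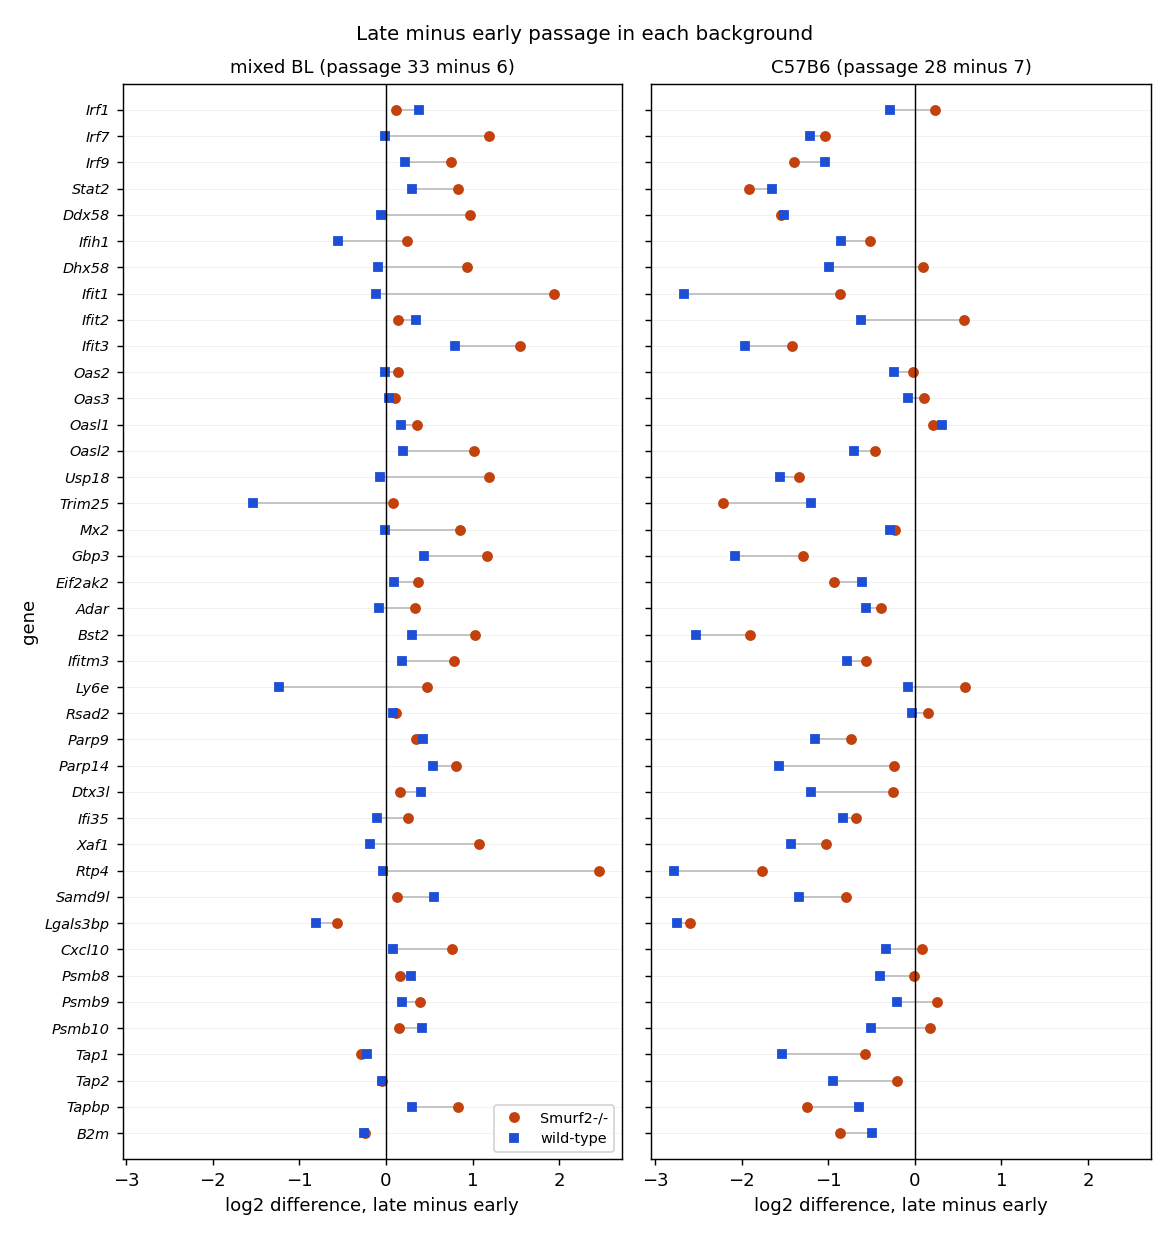
Points are log2 differences, late minus early passage, for each of the 40 genes in Smurf2-/- cells (circles) and wild-type cells (squares), with mixed BL on the left and C57B6 on the right. In mixed BL the medians are 0.38 in Smurf2-/- and 0.08 in wild-type cells, and in C57B6 -0.57 and -0.90 for the same genotypes, with Lgals3bp left of 0 throughout.

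The difference between the backgrounds in the effect of passage was above 0 for 39 of the 40 genes, all but Ly6e (-0.63 ± 0.72). Its median was 1.00 log2, against -0.05 over all genes. This direction was known from earlier results of these data when the contrast was chosen, so the counts here describe it and are no independent support. Estimates with small errors were those of Bst2 at 2.88 ± 0.38, Ifit3 at 2.86 ± 0.33, Lgals3bp at 1.98 ± 0.22 and Parp9 at 1.33 ± 0.17, with limma adjusted p-values of 0.191 to 0.203. Rtp4 had the widest estimate and a wide error, 3.49 ± 1.01. By limma 0 of the 40 were called, as were 0% of all genes, while 22 of the 40 had an unadjusted p under 0.05, against 9.19% of all genes. By role, the group median was 2.68 for the 3 Ifit genes, 1.71 for the 4 transcription factors, 0.45 for the 7 antigen processing genes and 0.13 for the 4 Oas genes. The median was 1.15 over the 13 genes with an ISRE core, 0.91 over the 18 with a window and no core, and 0.87 over the 9 with no window. The ranges of these 3 sets overlapped, 0.04 to 2.88, 0.0061 to 1.98 and -0.63 to 3.49.

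The same numbers can be read as background differences at each passage class. In early cells the mixed BL background lay below C57B6, with Bst2 at -2.34 ± 0.27 and Lgals3bp at -1.32 ± 0.15 (limma adjusted p = 0.0801 for both). The difference was below 0 for 37 of the 40 genes with a median of -0.57, and above 0 for Ifit2, Trim25 and Oasl1. By limma 0 of the 40 were called, against 0.206% of all genes, and 20 had an unadjusted p under 0.05 (14.1% of all genes). Both early mixed BL arrays stood below both early C57B6 arrays for 30 genes (23.8% of all genes), and without the early wild-type C57B6 array the fitted median was -0.33. Of the 17 macrophage and leukocyte markers 15 lay higher in early mixed BL cells (median 0.17, up to 2.48 for Lyz2), with 4 at an unadjusted p under 0.05, 0 called by limma and a smallest adjusted p of 0.0801. Their part in the result was not tested. In late cells the direction was the opposite, with Ifit3 at 1.66 ± 0.23 and a median of 0.48. There 36 of the 40 lay above 0, all but Ly6e, Ifih1, Irf1 and Rsad2, with 0 called by limma against 0.00571% of all genes, and 11 at an unadjusted p under 0.05 (9.78% of all genes). Both late mixed BL arrays stood above both late C57B6 arrays for 19 genes (12.6% of all genes), and the median was 0.13 with the Smurf2-/- array of late mixed BL cells left out and 0.72 with the wild-type one left out.

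Under quantile normalisation of the 8 arrays Lgals3bp was called in 2 comparisons and Bst2 in 1. Lgals3bp then fell by 2.56 ± 0.11 in late against early C57B6 cells (limma adjusted p = 0.0385). In early cells Bst2 differed by -2.55 ± 0.19 and Lgals3bp by -1.34 ± 0.11, mixed BL minus C57B6 (limma adjusted p = 0.0382 for both). No other alternative run called any of the 40 genes.

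Genotype separated none of these genes, either by the limma threshold or by arrays that did not overlap. Trim25 averaged 0.41 ± 1.34 on Smurf2-/- and -0.68 ± 0.86 on wild-type arrays (SD, n = 4 each), a difference of 1.09 ± 0.42 (SE). B2m averaged -0.18 ± 0.37 on Smurf2-/- and 0.19 ± 0.25 on wild-type arrays (SD, n = 4 each), a difference of -0.36 ± 0.12 (SE). These were the only 2 of the 40 with an unadjusted p under 0.05 (7.55% of all genes), and their limma adjusted p was 0.651. The limma fit called 0 of the 40, against 0.0286% of all genes, which were Smurf2 and sex-linked genes only. The median difference was 0.05, with 25 genes higher and 15 lower. Leaving out 1 array at a time moved that median to between -0.17 and 0.24, and it was below 0 when the array left out was late Smurf2-/- mixed BL, late wild-type C57B6 or early mixed BL of the wild-type. Smurf2-/- stood above wild-type in all 4 pairs for Irf7, Oasl1, Oasl2, Trim25, Ly6e and Rsad2 (11% of all genes), and below it in all 4 for Oas3 and B2m (9.35% of all genes). No gene of the set had all 4 Smurf2-/- arrays above, or all 4 below, the wild-type arrays, as 1.14% and 1.02% of all genes did.

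Pair by pair, the genotype difference had no common sign. Smurf2-/- minus wild-type had a median over the 40 genes of 0.45 in late mixed BL, 0.0013 in early mixed BL, 0.04 in late C57B6 and -0.33 in early C57B6 cells. In late mixed BL cells 30 genes lay higher and 19 exceeded 0.5 (7.87% of all genes), led by Trim25 at 2.48, Ly6e at 2.11, Ifit1 at 1.85 and Rtp4 at 1.81. In early C57B6 cells 34 lay lower and 8 lay under -0.5 (3.57% of all genes), led by Rtp4 at -1.12 and Parp14 at -1.09. Some fibroblast markers differed more than these genes in the same pairs. In late mixed BL cells Dcn differed by 4.52, Lum by 4.40, Thy1 by 3.12 and Pdgfra by 2.84, with a median of 0.02 over the 10 markers and 6 of them higher. In early C57B6 cells Pdgfra differed by -2.19 and Lum by -2.17, with a median of -0.08 and 7 of the 10 lower. The part of these markers in the result was not tested. Each of these is 1 array against 1 array and has no replicate check. The difference in genotype effect between late and early passage had a median of 0.37, and between mixed BL and C57B6 of 0.43. Both directions rested on single arrays, since the medians were -0.0424 and -0.12 without the late Smurf2-/- mixed BL array and -0.0435 and -0.0798 without the early wild-type C57B6 array. Limma called 0 of the 40 in either contrast, and 0 had an unadjusted p under 0.05. Of all genes 0% were called in either, and 5.35% and 3.18% had an unadjusted p under 0.05.

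**Figure D5:**
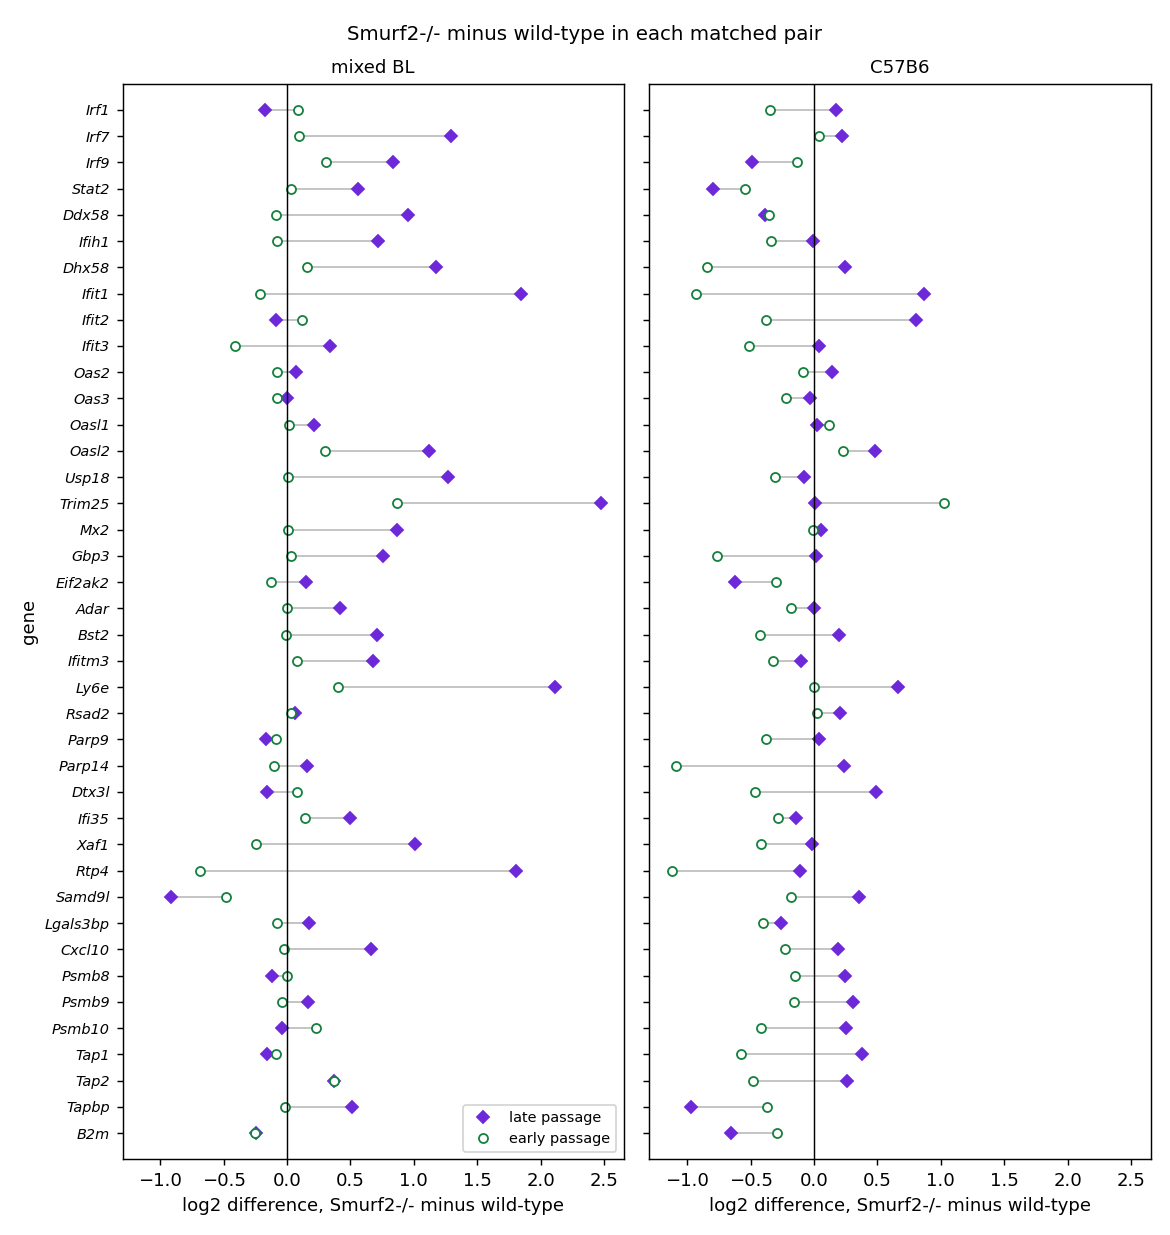
Points are log2 differences, Smurf2-/- minus wild-type, for each of the 40 genes at late passage (filled diamonds) and early passage (open circles), with mixed BL on the left and C57B6 on the right. In late mixed BL cells 30 of 40 points lie right of 0, up to 2.48 for Trim25, and in early C57B6 cells 34 of 40 lie left of 0.

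Passage over both backgrounds together gave a median of -0.26, with 11 genes higher and 29 lower. Without the early wild-type C57B6 array that median was 0.04, and over the other arrays left out in turn it stayed below 0. Lgals3bp differed by -1.68 ± 0.42, Oasl1 by 0.26 ± 0.059, B2m by -0.46 ± 0.12, Tap1 by -0.65 ± 0.22 and Trim25 by -1.22 ± 0.42 (late minus early, log2 ± SE). These were the 5 genes with an unadjusted p under 0.05 (17.3% of all genes), and limma called 0 of the 40 against 0.0171% of all genes. Late stood below early in all 4 pairs for Lgals3bp, Tap1, Tap2 and B2m (11.9% of all genes), and above it in all 4 for Oasl1 (15.1% of all genes). The 4 genes with late below early were 10% of the set, so this was no more frequent than among all genes. By group they were 3 of the 7 antigen processing genes (Tap1, Tap2 and B2m, 42.9%) and 1 of the 33 interferon-induced genes (Lgals3bp, 3.03%). This split was seen in the values and was not tested. Background over both passage classes together (mixed BL minus C57B6) had a median of -0.07, with 0 called by limma against 0.08% of all genes. That median was 0.15, 0.04 and 0.02 without the early wild-type C57B6, the early Smurf2-/- mixed BL and the early wild-type mixed BL array in turn. Ifih1 at -0.83 ± 0.20, Ifit2 at 0.58 ± 0.19 and Trim25 at 1.13 ± 0.42 were the 3 with an unadjusted p under 0.05 (13.5% of all genes).

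The rest of the pathway was read from lists of other genes for the same contrast of passage effects, mixed BL less C57B6. Upstream, the 7 measured interferon genes had a median of -0.07 and none had an unadjusted p under 0.05. Their ranges over the arrays ran from 0.10 for Ifng to 0.53 for Ifna14, and none was placed at a log2 level of 8 or more on every array. Signal over background is unknown, so these small differences do not show whether interferon transcripts were present or changed. Among 11 receptor, kinase and Stat genes 7 lay higher and 4 lower, with a median of 0.06. Ifnar2, a chain of the type I interferon receptor, had the largest of these at 1.00 ± 0.22 (limma adjusted p = 0.363). The 12 genes of nucleic acid sensing had a median of 0.16, and the 6 other Irf genes of -0.10. On the late Smurf2-/- mixed BL array, the receptor and kinase genes of widest range stood at -1.06 (Il10rb), 0.27 (Jak2) and -0.20 (Stat3). The sensing genes of widest range stood there at -1.51 (Sting1), -0.96 (Ikbke) and 0.09 (Tlr4). Those of the other Irf genes stood at 0.53 (Irf5), 0.58 (Irf2) and 0.0001 (Irf2bp2). Downstream, 33 of 40 other induced genes lay higher (82.5%, against 40.7% of all genes) and 7 lower, with a median of 0.46. Of these 40, 13 had an unadjusted p under 0.05 (12 higher and 1 lower), against 9.19% of all genes. Trim30a, an induced ubiquitin ligase, stood at 2.10 on the late Smurf2-/- mixed BL, 0.97 on the early Smurf2-/- C57B6 and 1.28 on the early wild-type C57B6 array and at or below 0.02 on the other 5. Lgals9, a galectin, had the opposite sign at -1.58 ± 0.36. Of 12 other class I genes 8 lay higher, with a median of 0.18. Erap1, which trims peptides for class I, had 1.41 ± 0.17 (limma adjusted p = 0.191) and H2-Q4, a non-classical class I gene, 2.36 ± 0.58. Limma called no gene of these lists in that contrast.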

How the data were processed

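RNA of mouse embryonic fibroblasts was measured on 8 Affymetrix arrays. The authors deposited log2 values in which the median of every transcript cluster across arrays is 0, as read from the numbers themselves. Array normalisation and probe summary: not given in the sources used here. An exon array is named in the series text, whereas the probes carry identifiers of a gene-level Affymetrix array, whose annotation gave the gene names (19134 clusters with 1 symbol).

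Clusters with 1 symbol were averaged per gene and fitted with limma 3.58.1 (R 4.3.3; lmFit and eBayes without a trend), with Benjamini-Hochberg adjustment over 17501 genes at 0.05. Genotype, passage class and background entered 1 additive fit with 4 residual degrees of freedom, and each contrast within a background or passage class came from a fit with 1 interaction and 3 residual degrees of freedom. Smurf2 was tested by exact two-sided permutation. The fit was tested on simulated data. Replicate numbers follow accession order and pair nothing; the pairs used share background and passage class. Alternatives were each array left out, quantile normalisation, a variance trend, robust eBayes, single clusters, no sex chromosome genes, a replicate block and all interactions. Pattern counts under quantile normalisation were added after seeing the data.

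The members, the gene lists and the passage by background contrast were chosen with earlier results of these data known. Values on all arrays are given for the 2 members of largest range in each role group, for Oas3 as the smallest, and would have been for any called. In the other lists, genes were to be named from the 3 of largest range, but not all of these are named in every list. Any others named were chosen after their values were seen. Depth does not apply to arrays. Promoter windows, not tied to the arrays' build, are RefSeq's for GRCm38.p6.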

Additional observations from a re-analysis of the deposited data

Results flagged for a closer look

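In the 4 wild-type arrays, the early C57B6 array stood far from the other 3 for 9 genes, by a gap that made up more of the whole range than Dixon's critical value allows. Its log2 values there were 0.98 for Irf7, 0.89 for Dhx58, 2.03 for Ifit1, 1.29 for Usp18 and 0.26 for Mx2, and 2.29 for Bst2, 0.70 for Ifi35, 1.40 for Xaf1 and 2.83 for Rtp4. Chance flags about 1 in 20 such groups, and 80 groups were screened (40 genes in each genotype). The 4 wild-type arrays differ in background and passage class, so such a gap is also a difference between those conditions and they cannot be told apart. No Smurf2-/- array stood apart by the same measure for any of the 40 genes.

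The median over the 40 genes of the difference, late minus early in mixed BL less late minus early in C57B6, was 1.00 log2 (0.9971). The median passage difference was positive in both mixed BL genotypes, though only slightly in wild-type cells, and negative in both C57B6 genotypes. Without the late Smurf2-/- mixed BL array the fitted mixed BL median was 0.0196. The median of 1.00, taken over the differences of single genes, was not itself tested, and the contrast was chosen with its direction in the set known. Gene by gene, the same contrast called none of the 40 by limma, and 22 had an unadjusted p under 0.05.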

How the results depend on the processing

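No setting called any of the 40 genes for genotype, passage, background, passage by background, passage in mixed BL, background at late passage, genotype by passage or genotype by background. Quantile normalisation called 1 gene for passage in C57B6 and 2 for background at early passage, where the analysis as reported called 0, and moved the passage by background median to 0.93. Under it the 30, 19, 30 and 19 genes whose arrays did not overlap by passage in C57B6, by passage in mixed BL, by early background and by late background became 32, 20, 31 and 20. Leaving out each array in turn moved the median over the genes to between 0.76 and 1.21 for passage by background, -0.98 and -0.48 for passage in C57B6, 0.0196 and 0.43 for passage in mixed BL, -0.81 and -0.33 for background at early passage, and 0.13 and 0.72 for background at late passage. For genotype by passage it ran from -0.0435 to 0.96, for genotype by background from -0.12 to 0.93, for genotype from -0.17 to 0.24, for passage from -0.44 to 0.04 and for background from -0.32 to 0.15, so these 5 medians changed sign. In passage by background, 5 genes changed sign without 1 array, over ranges of -0.19 to 0.73 for Ifit2, -0.033 to 0.15 for Oas3, -0.0718 to 0.084 for Oasl1, -1.51 to 0.25 for Ly6e and -0.0422 to 0.12 for Rsad2. The cause was not tested. The matched pair as a replicate block left the genotype median at 0.05 with 0 genes called, as did the fit with no replicate block. The variance trend, robust eBayes, single clusters and all interactions changed no call. With 8 arrays and 1 per combination, a difference carried by 1 array cannot be separated from that combination, and signal over background is unknown because the values are centred.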

Other observations

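Other induced genes outside the set did not all share its course, and those described here were chosen after their values were seen, apart from Irgm1 and H2-Q4, each of which had one of the 3 largest ranges in its list. Casp4, an inflammatory caspase that binds bacterial lipopolysaccharide, had 0.88 in late Smurf2-/-, -0.02 in late wild-type, -0.78 in early Smurf2-/- and -0.92 in early wild-type mixed BL cells. Casp4 in C57B6 cells had 0.02 in late Smurf2-/-, -0.33 in late wild-type, 0.67 in early Smurf2-/- and 0.54 in early wild-type. It was thus high on the same 3 arrays. Gbp7, a guanylate-binding protein, had 0.64 in late Smurf2-/- mixed BL, 0.75 in early Smurf2-/- C57B6 and 0.94 in early wild-type C57B6 cells and at most 0.03 on the other 5 arrays. Irgm1, a GTPase of autophagy and pathogen control, had 1.20 in early Smurf2-/- and 0.81 in early wild-type C57B6 cells, but its lowest value, -0.69, was in late Smurf2-/- mixed BL cells. H2-Q4 had 1.53 in late wild-type mixed BL and 1.43 in early wild-type C57B6 cells, above 0.62 in late Smurf2-/- mixed BL and 0.12 in early Smurf2-/- C57B6 cells. Limma called none of these 4 genes for passage by background.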
